A study of Mus musculus with 12 samples.

Results

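The cytosolic ribosomal proteins are the protein part of the ribosome, and their messages were measured here in donor T cells taken from the liver in a mouse model of graft-versus-host disease. The genes were chosen by name and by a count minimum from the deposited table of gene counts. Rows named Rpl or Rps followed by a digit, Rplp0, Rplp1, Rplp2 and Rpsa were taken, and kinases, pseudogenes, binding proteins and paralogs whose names end in l or l1 were left out. The rule did not remove names ending in rt, so a retrogene copy, Rpl37rt, was among the genes kept. This gave 79 rows, of which 57 had at least 100 counts in every library and were kept, of 25078 rows in all. They comprised 35 genes of the large subunit and 22 of the small subunit. The 12 libraries were RNA-seq of CD4+ or CD8+ T cells sorted as H-2Kb+TCRβ+ cells on day 6 after transplantation.

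All recipients were lethally irradiated BALB/c mice given T cell-depleted bone marrow from WT C57BL/6 donors together with T cells. The T cells came from 1 of 3 kinds of C57BL/6 donor. WT donors carried no deletion. STAT3-/- donors were Stat3 fl/fl mice with a CD4-Cre transgene, which acts in T lineage cells. STAT3-/-PD-1-/- donors carried these alleles together with a PD-1 deletion in every cell. Each of the 6 groups of genotype and subset had 2 libraries, and each library pooled cells of 3 recipients, so the spread between libraries is a spread between pools. The CD4+ and CD8+ cells came from the same livers. Library totals ran from 21676125 to 24551477 counts.

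Ribosomal proteins are made in the cytoplasm, carried to the nucleolus, and assembled there with ribosomal RNA into the large and small subunits. Many of their messages begin with a C followed by a run of pyrimidines, the 5′ TOP motif, through which mTORC1 signalling controls their translation. T cells make more ribosomes when they are activated and divide. Because the libraries measure message and not protein or translation, the values below are relative message levels. In a bulk sample, fewer cells of a type and less RNA per cell cannot be told apart.

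The start sites of the genes that the results turn on are shown because the TOP motif is read from the first bases of the message. Each line is 30 bases, 15 on either side of the RefSeq start on GRCm38.p6, 5′ to 3′ on the gene's strand. Capitals mark the longest C followed by at least 4 pyrimidines (C or T), where the window held one, whether before, over or after the start. Rps2 lay at chr17:24720048-24720077 (+), Rpl14 at chr9:120571502-120571531 (+), Rpl31 at chr1:39367836-39367865 (+), Rpl5 at chr5:107900513-107900542 (+), Rps26 at chr10:128626492-128626521 (-), Rps6 at chr4:86857353-86857382 (-) and Rplp0 at chr5:115559452-115559481 (+).
Rps2: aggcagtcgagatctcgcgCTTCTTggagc
Rpl14: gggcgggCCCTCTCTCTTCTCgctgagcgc
Rpl31: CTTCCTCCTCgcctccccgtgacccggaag
Rpl5: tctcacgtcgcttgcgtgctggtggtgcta
Rps26: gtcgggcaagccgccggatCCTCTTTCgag
Rps6: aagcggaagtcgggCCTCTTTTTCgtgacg
Rplp0: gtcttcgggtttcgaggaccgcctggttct

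A promoter window was found for 44 of the 57 genes. A tract of this kind stood on the gene's own strand, as printed above, within the 30 bases in 27 of the 44 (61.4%), against 36.4% of all 32851 windows in the table. The longest tract covered the first base of the message in 11 of the 27, as in Rpl14 and Rps6, and began at that base in none. It lay wholly before the start in 9, as in Rpl31, and wholly after the first base in 7, as in Rps2 and Rps26. Shorter tracts were not classed, and a shorter tract in Rpl31 ran over the first base. On the opposite strand a tract stood in 10 (22.7%), against 40.8% of all windows. The letters CCGGAAG, a core that ETS family factors bind, were found on either strand of the full 300 bases in 19 (43.2%), against 8.86% of all windows. The reverse complement of those letters begins with CTTCC, which also meets the tract rule, so the searches can overlap. These matches describe letters and not occupancy. Rpl5 and Rplp0 held no tract in the window shown, and the 14-base tract of Rpl14 was the longest of the windows printed.

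The targeted genes were checked first. Stat3 was at 362 and 466 CPM (the count on the usual depth-corrected scale, with library sizes adjusted by the trimmed mean of M values, TMM, within a subset) in WT CD4+ libraries, 138 and 164 in STAT3-/- and 157 and 222 in STAT3-/-PD-1-/- libraries. In CD8+ cells it was at 396 and 387, 148 and 136, and 154 and 238 CPM in the same order. Every library of a deleted genotype was thus below both WT libraries, although message remained. The log2 fold change for STAT3-/- against WT was -1.46 ± 0.22 (SE) in CD4+ cells (edgeR, adjusted p = 0.055) and -1.46 ± 0.20 in CD8+ cells (adjusted p = 0.108). Pdcd1, which encodes PD-1, was at 242 and 235 CPM in WT, 257 and 323 in STAT3-/- and 55.1 and 26.3 in STAT3-/-PD-1-/- CD4+ libraries. In CD8+ libraries it was at 375 and 310, 422 and 458, and 94.0 and 66.5 CPM. Counts cover the whole gene, so transcripts that keep exons outside the deleted part are included.

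The genes varied widely in level. Divided by exon length, their mean level in WT CD4+ libraries ran from 5.34 CPM per kilobase for Rpl11 to 1262 for Rpl4, with a median of 78.6. In CD4+ cells 26 genes stood above 100 CPM per kilobase and 15 below 20. In WT CD8+ libraries the range was 5.95 for Rpl19 to 1385 for Rpl4, with a median of 88.0. Among the genes kept, the median of the small subunit genes was above that of the large subunit genes in both subsets. It was 121 against 63.3 CPM per kilobase in CD4+ and 148 against 68.9 in CD8+ cells. These medians leave out the 22 rows under the count minimum. Genes also differ in how much sequence they share with others (next paragraph), which was not corrected for. The 5 genes with most counts, Rpl4, Rps3, Rpl8 and Rplp0 among them, held between 46.3% and 49.8% of all counts on the 57 genes in any library, and the first 10 genes held between 64.5% and 68.2%. The top of the order was not separated beyond its spread. In WT CD4+ cells Rpl4 stood at 1262 ± 118 (SD, n = 2) and Rpl8 at 1208 ± 70.3 CPM per kilobase.

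The mouse genome holds many processed copies of these genes. Of the 51-base windows of a member's principal transcript, as long as a read, a median of 51.8% (6.69% to 100% over 56 matched genes) occurred in no other GENCODE gene, and 39.8% did so when 1 mismatch was allowed. A member shared windows with a median of 8.5 pseudogenes, and the highest number was 119. Across genes, Spearman's rho between the share of unique windows and the counts per kilobase was 0.43 with exact windows and 0.12 with 1 mismatch allowed. This is a description over 56 genes of the same libraries, which are not independent replicates. Rps3 (97.2% unique), named here after its values were seen, stood high. Rps2, which encodes a small subunit protein at the mRNA entry channel, had 21.3% unique windows and shared sequence with 71 pseudogenes, so its counts are uncertain. The same limit holds for other genes named below, such as Rps6 (15.5% unique) and Rps10 (28.6%). It also holds for Rplp1 and Rplp2, at 12.7% and 14.3% with 1 mismatch allowed.

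**Figure D1:**
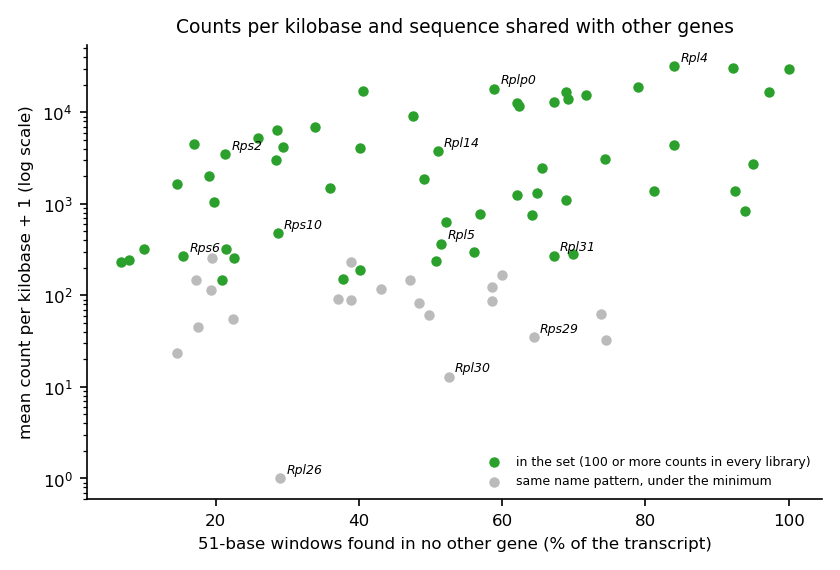
Each point is a row of the name pattern, with the percentage of its 51-base windows found in no other gene on the x axis and its mean count per kilobase plus 1 on a log y axis; green points are the 57 genes kept (56 matched) and grey points the rows under 100 counts in some library. Genes with few unique windows covered a wide range of counts.

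The 22 rows that missed the minimum of 100 counts included genes of several proteins that every ribosome holds. Rpl26 had 0 counts in every library, as did Rps27rt, a copy whose row overlaps that of Rps27. The row of Rpl26 also overlaps Gm15772, and that of Rpl30 overlaps Gm12191, each on its own strand. How reads in such overlaps were counted is not given in the sources used here. A low count in these rows therefore need not mean a low message level. Rpl30 had 3 to 11 counts, Rpl36a 5 to 22, Rps29 6 to 22, Rps28 14 to 32, Rps27 35 to 73, Rpl38 52 to 124 and Rps27a 71 to 115 counts. At the threshold, Rpl19 (lowest count 102) and Rpl12 (122) were just inside, and Rps25 (87) and Rpl21 (86) just outside. The median share of unique windows among the rows left out was 43.1%.

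The share of all counts that fell on the 57 genes gives the simplest summary of each library. In CD4+ cells it was 1.25% and 1.11% for WT, 1.31% and 1.06% for STAT3-/- and 1.44% and 1.42% for STAT3-/-PD-1-/- libraries. In CD8+ cells it was 1.24% and 1.44% for WT, 1.21% and 1.31% for STAT3-/- and 1.56% and 1.56% for STAT3-/-PD-1-/- libraries. The STAT3-/-PD-1-/- libraries were the highest in each subset, while WT and STAT3-/- libraries overlapped. The group means were 1.18% ± 0.103 (SD, n = 2), 1.19% ± 0.174 and 1.43% ± 0.0156 in CD4+ cells and 1.34% ± 0.143, 1.26% ± 0.0692 and 1.56% ± 0.00201 in CD8+ cells, for WT, STAT3-/- and STAT3-/-PD-1-/- in turn. With 2 libraries against 2, the smallest p a two-sided exact permutation test can give is 0.333, so the share was not tested.

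**Figure D2:**
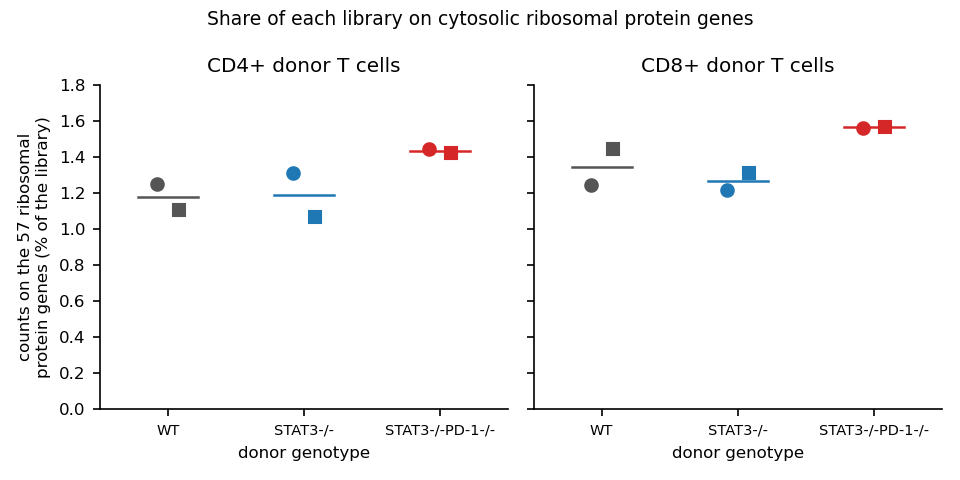
Percentage of all counts on the 57 ribosomal protein genes (y axis) by donor genotype (x axis), for CD4+ and CD8+ donor T cells; each point is a library and each bar is the mean of 2 libraries. The STAT3-/-PD-1-/- libraries sat at 1.44% and 1.42% in CD4+ and at 1.56% and 1.56% in CD8+ cells, above every other library of their subset.

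The first comparison asked what loss of STAT3 alone did. In CD4+ cells no ribosomal protein gene was called changed between STAT3-/- and WT donors, against 0.334% of all 11959 genes tested. Stat3 itself was not called in this test (edgeR adjusted p = 0.055), so the lack of calls does not show a lack of change. The median log2 fold change of the 57 genes was 0.06 (35 higher, 22 lower), against 0.01 for all genes. None of the 57 had an unadjusted edgeR p under 0.05, against 10.5% of all genes, and DESeq2 called 0. Levels in both STAT3-/- libraries lay above both WT libraries for 2 genes (background 19.2%) and below them for 7 (background 18.9%). The STAT3-/- libraries themselves differed. Of the 6 CD4+ libraries, replicate 1 of STAT3-/- was among the 2 highest for 28 of the 57 genes and replicate 2 was among the 2 lowest for 49. Without STAT3-/- replicate 1 the median was -0.15. Stalk protein Rplp0, the base of the arm that recruits elongation factors, was at 1109 and 908 CPM in WT and 970 and 908 CPM in STAT3-/- CD4+ libraries. Rpl22, a large subunit protein known for its part in T cell development, was at 248 and 212 CPM in WT and 346 and 224 in STAT3-/- libraries. The groups overlapped in both genes.

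In CD8+ cells no ribosomal protein gene was called changed between STAT3-/- and WT donors either, against 0.0583% of all 12002 genes tested. Stat3 was again not called (edgeR adjusted p = 0.108), and the same limit holds. The median log2 fold change was -0.09 (14 higher, 43 lower). By edgeR 0 of the 57 had an unadjusted p under 0.05, against 6.01% of all genes higher and 4.95% lower in that way, and DESeq2 called 0. Levels lay above both WT libraries for 6 genes (background 22.3%) and below them for 10 (background 21.1%). Leaving out WT replicate 2, among the 2 highest CD8+ libraries for 28 genes, moved the median to 0.013, and leaving out WT replicate 1 moved it to -0.19.

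The second comparison set STAT3-/-PD-1-/- against WT, which differ at both genes. In CD4+ cells 1 of 57 ribosomal protein genes rose, Rps2, and none fell, against 12.9% of all genes called in either direction and 7.21% called higher and 5.65% lower. Rps2 was at 125 and 117 CPM in WT, 110 and 114 in STAT3-/- and 168 and 181 in STAT3-/-PD-1-/- libraries. The STAT3-/-PD-1-/- libraries stood above the other 4 with no overlap. The log2 fold change was 0.53 ± 0.14 (SE; edgeR, adjusted p = 0.0452). Leaving out any 1 of the 6 CD4+ libraries ended that call (adjusted p 0.0525 to 0.233), and the 51-base windows of Rps2 were the least unique among the genes called. With the replicate number as a term of the fit, 8 of the 57 rose and none fell, Rpl5, Rplp1, Rpl22 and Rps26 among them, against 13.8% of all genes called higher.

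The median log2 fold change in CD4+ cells was 0.26 (49 higher, 8 lower), against -0.01 over all genes, with 0.26 for the large and 0.25 for the small subunit. The levels of 38 genes lay above both WT libraries (background 31.0%) and of 3 below them (background 28.0%). By edgeR 5 of the 57 had an unadjusted p under 0.05, all higher, against 15.6% of all genes called higher in that way. Most of these differences did not pass the test gene by gene. The pooled SD of the median between libraries of a group was 0.159 in CD4+ cells. Libraries with like replicate numbers gave medians of 0.14 and 0.34.

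Among the stalk proteins, Rplp1 was at 279 and 242 CPM in WT, 332 and 254 in STAT3-/- and 395 and 364 in STAT3-/-PD-1-/- CD4+ libraries (log2 fold change against WT 0.54 ± 0.17, edgeR adjusted p = 0.0837). Rplp2 was at 63.4 and 75.6, 69.6 and 81.3, and 86.5 and 88.2 CPM, and Rplp0 at 1109 and 908, 970 and 908, and 1110 and 1139 CPM. Both STAT3-/-PD-1-/- libraries were the highest of the 6 for Rplp1 and Rplp2, whereas for Rplp0 1 WT library was at the level of the lower STAT3-/-PD-1-/- library.

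Rpl5 and Rpl11 form a particle with 5S rRNA that also binds the p53 regulator Mdm2. Rpl5 was at 26.3 and 23.5 CPM in WT, 26.0 and 21.1 in STAT3-/- and 34.3 and 48.7 in STAT3-/-PD-1-/- CD4+ libraries (log2 fold change against WT 0.74 ± 0.22, edgeR adjusted p = 0.0647). Rpl11 was at 6.39 and 6.54, 7.05 and 7.29, and 8.04 and 8.76 CPM. Both genes were highest in the STAT3-/-PD-1-/- libraries, and neither passed the test in CD4+ cells without a term for the replicate number.

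On the small subunit, Rps26, at the mRNA exit channel, was at 206 and 174 CPM in WT, 213 and 168 in STAT3-/- and 260 and 277 in STAT3-/-PD-1-/- CD4+ libraries. Rps6, a substrate of the S6 kinases downstream of mTORC1, was at 17.2 and 13.0, 18.7 and 12.3, and 16.6 and 18.6 CPM, and the groups overlapped. Rps19, a small subunit protein needed for 18S rRNA maturation, was at 36.1 and 31.5, 32.3 and 26.9, and 35.9 and 34.6 CPM, where WT overlapped with each of the other groups and the STAT3-/- libraries lay below the STAT3-/-PD-1-/- libraries. Rpl13a was at 868 and 739 CPM in WT and 840 and 722 in STAT3-/-PD-1-/- libraries, an abundant member with no separation.

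In CD8+ cells 2 of 57 genes rose between WT and STAT3-/-PD-1-/-, Rps2 and Rpl14, and none fell, against 17.2% of all genes called and 9.01% called higher and 8.21% lower. Rps2 was at 144 and 134 CPM in WT, 150 and 144 in STAT3-/- and 188 and 225 in STAT3-/-PD-1-/- libraries (log2 fold change 0.57 ± 0.13, adjusted p = 0.0244). Rpl14, a large subunit protein, was at 138 and 141, 146 and 147, and 187 and 205 CPM (log2 fold change 0.49 ± 0.11, adjusted p = 0.0238). Both STAT3-/-PD-1-/- libraries were above all other CD8+ libraries for each gene. The call for Rps2 was lost without WT replicate 1 (adjusted p = 0.064), WT replicate 2 (0.133) or STAT3-/-PD-1-/- replicate 2 (0.119). The call for Rpl14 was lost without either WT library (0.103 and 0.115) or either STAT3-/-PD-1-/- library (0.0569 and 0.11).

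Over all 57 genes the median was 0.17 in CD8+ cells (48 higher, 9 lower), with 0.19 for the large and 0.08 for the small subunit. Libraries with like replicate numbers gave medians of 0.25 (48 higher, 9 lower) and 0.06 (33 higher, 24 lower). With 1 library left out the median ranged from 0.0776 to 0.2356. Levels lay above both WT libraries for 24 genes (background 30.8%) and below them for 3 (background 28.9%). By edgeR 13 genes were higher at an unadjusted p under 0.05, against 17.9% of all genes, and 1 was lower, against 16.1%. DESeq2 called 7 genes, 6 higher and 1 lower, against 11.4% of all genes called higher and 11.3% lower by DESeq2. With the replicate number as a term 5 rose, against 12.6%, and 1 fell, Rps10, against 12.1%. The gene with the unadjusted lower value was also Rps10, a small subunit protein near the mRNA entry channel that is ubiquitylated on stalled ribosomes. It was at 17.7 and 19.9 CPM in WT, 8.76 and 16.4 in STAT3-/- and 9.99 and 10.98 in STAT3-/-PD-1-/- CD8+ libraries (log2 fold change against WT -0.84 ± 0.29, adjusted p = 0.0851). In CD4+ cells it was at 8.49 and 13.4, 9.32 and 7.25, and 11.8 and 10.5 CPM. There WT overlapped with each of the other groups, and both STAT3-/-PD-1-/- libraries lay above both STAT3-/- libraries.

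**Figure D3:**
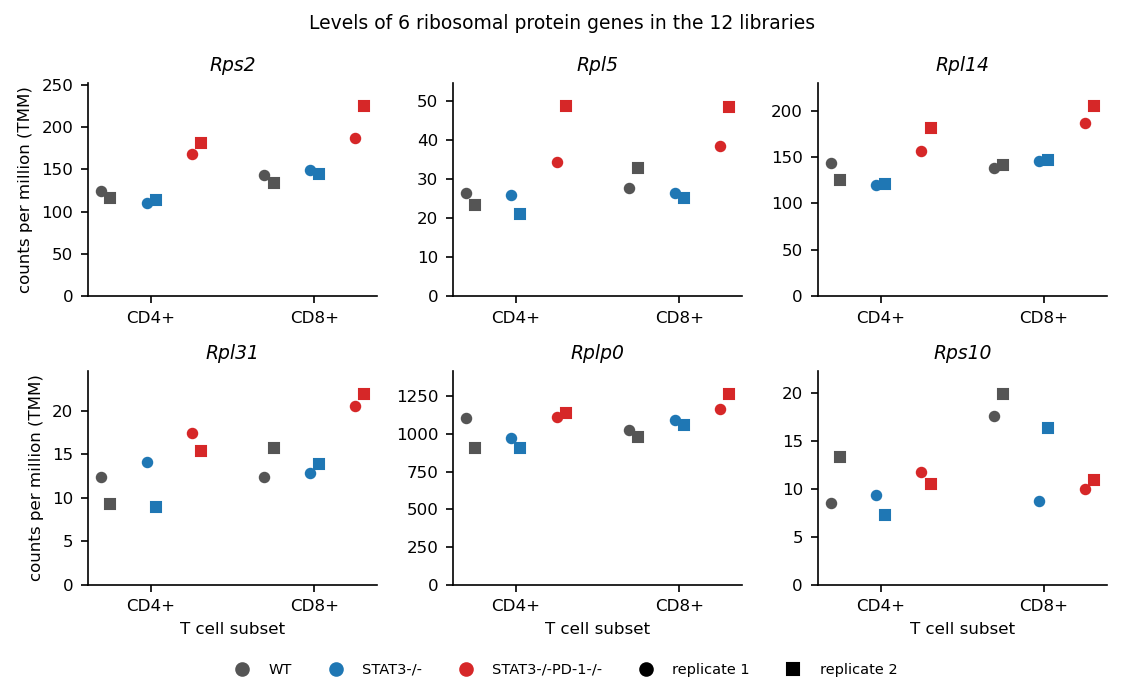
Level of Rps2, Rpl5, Rpl14, Rpl31, Rplp0 and Rps10 (y axis, TMM-scaled CPM, starting at 0) in CD4+ and CD8+ donor T cells (x axis), with 1 point per library, colour for donor genotype and shape for replicate number. Rps2 in STAT3-/-PD-1-/- libraries sat at 168 to 181 CPM in CD4+ and 188 to 225 CPM in CD8+ cells, above the other libraries of the subset, while Rps10 was highest in WT CD8+ cells at 17.7 and 19.9 CPM.

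The third comparison, STAT3-/-PD-1-/- against STAT3-/-, set cells with and without PD-1 side by side where STAT3 was deleted in both. It uses the same STAT3-/-PD-1-/- libraries as the comparison with WT. In CD4+ cells 1 gene rose, Rps2 (log2 fold change 0.64 ± 0.14, edgeR adjusted p = 0.0311), and none fell, against 11.1% of all genes called and 6.05% called higher and 5.03% lower. The median was 0.21 (50 higher, 7 lower). Levels of 28 genes lay above both STAT3-/- libraries (background 29.6%) and of 2 below them (background 29.3%). By edgeR 9 genes had an unadjusted p under 0.05, all higher, against 15.2% of all genes. The call for Rps2 was lost without either STAT3-/- library (adjusted p 0.0847 and 0.0986) or either STAT3-/-PD-1-/- library (0.0938 and 0.217). With 1 library left out the median ranged from 0.0642 to 0.39, the highest being without STAT3-/- replicate 1. Between same-numbered libraries it was 0.09 and 0.35. With the replicate number as a term, 9 rose, Rpl5, Rplp1 and Rps26 among them, against 13.2% of all genes.

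In CD8+ cells 5 of 57 genes rose and none fell, against 16.8% of all genes called and 8.76% called higher and 8.05% lower. They included Rpl5 (log2 fold change 0.75 ± 0.16, adjusted p = 0.0241), Rpl31 (0.67 ± 0.18, 0.0426), Rps2 (0.49 ± 0.13, 0.0408) and Rpl14 (0.42 ± 0.11, 0.0397). Rpl31 sits at the rim of the peptide exit tunnel of the large subunit.

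Rpl5 was at 26.3 and 25.2 CPM in STAT3-/- and 38.5 and 48.4 in STAT3-/-PD-1-/- CD8+ libraries, with WT at 27.7 and 32.8. Rpl31 was at 12.8 and 13.9 in STAT3-/-, 20.5 and 21.9 in STAT3-/-PD-1-/- and 12.4 and 15.8 CPM in WT libraries. The STAT3-/-PD-1-/- libraries exceeded all 4 others for both genes, and also for Rps2 and Rpl14. Rpl31 overlaps Tbc1d8 and Rpl5 overlaps Dipk1a on the opposite strand, so part of their counts could come from the partner where strand was not used. Rps2 holds Snora64 on its own strand. Leaving out either STAT3-/- or either STAT3-/-PD-1-/- CD8+ library cut the count of 5 to 1 or 0, and leaving out either WT library left 2, Rpl5 and Rpl31.

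The median of the 57 genes was 0.25 (53 higher, 4 lower), at 0.25 for the large and 0.24 for the small subunit. Levels of 42 genes lay above both STAT3-/- libraries (background 32.5%) and of 0 below them (background 30.5%). By edgeR 17 genes had an unadjusted p under 0.05, all higher, against 17.9% of all genes called higher in that way, and DESeq2 called 10, all higher, against 11.4% of all genes called higher by DESeq2. With the replicate number as a term 8 rose, against 12.5% of all genes. Same-numbered libraries gave medians of 0.29 and 0.19. The pooled SD of the median between libraries was 0.0900 in CD8+ cells. Among the 9 members with at least 80% unique windows by exact match, a group set after seeing the data, the medians were 0.28 and 0.18 in CD4+ cells and 0.16 and 0.25 in CD8+ cells for STAT3-/-PD-1-/- against WT and against STAT3-/-. Of the stalk proteins, Rplp1 was at 320 and 347 CPM in STAT3-/- and 434 and 419 in STAT3-/-PD-1-/- libraries, and Rplp0 at 1095 and 1057 and 1168 and 1264 CPM, without overlap in either gene. Rplp2 was at 78.8 and 76.7 CPM in STAT3-/- and 77.8 and 102.7 in STAT3-/-PD-1-/- libraries, which overlapped. Rps26 was at 231 and 256 and 327 and 329 CPM (log2 fold change 0.43 ± 0.12, adjusted p = 0.0507). Rpl22 was at 251 and 284 and 374 and 321 CPM, and Rps6 at 16.9 and 13.8 and 18.6 and 17.9 CPM.

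**Figure D4:**
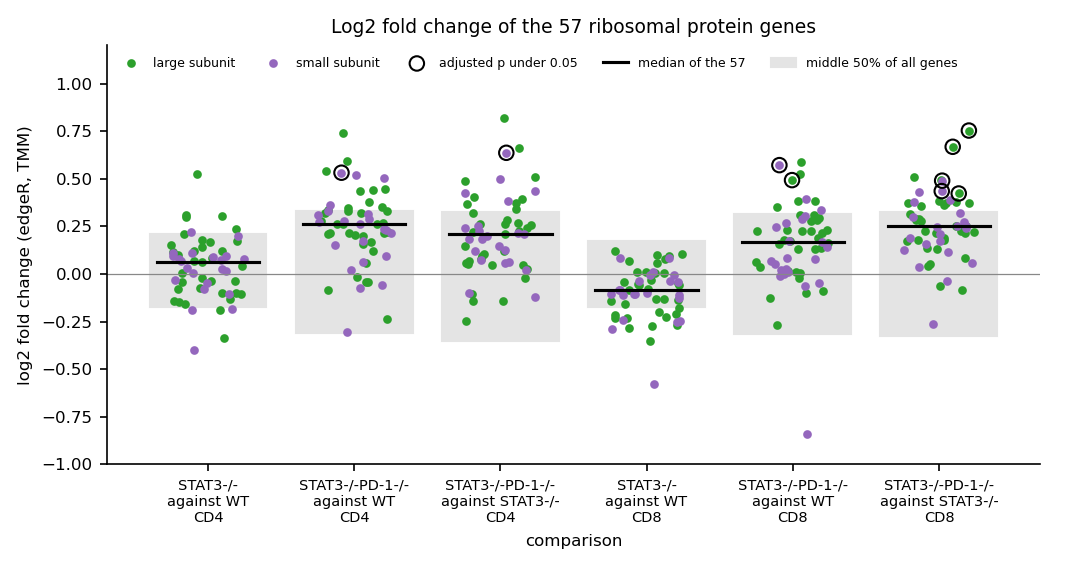
Log2 fold change (y axis) of the 57 ribosomal protein genes in each comparison (x axis), with 1 point per gene coloured by subunit, a ring where the adjusted p was under 0.05, a line at the median and a grey box over the middle 50% of all genes tested. The medians were 0.06, 0.26 and 0.21 in CD4+ and -0.09, 0.17 and 0.25 in CD8+ cells, and most points lay inside the grey boxes.

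Whether a genotype acted differently in the subsets was tested directly over all 12 libraries. For STAT3-/- against WT the difference between CD8+ and CD4+ cells was called for 0 of 57 genes and 0% of all 12334 genes. For STAT3-/-PD-1-/- against WT it was called for 0 of 57, against 0.00811% of all genes. By edgeR 0 of 57 passed an unadjusted p under 0.05 in either, against 1.85% and 4.43% of all genes, and DESeq2 called 0 in either. The medians were -0.14 and -0.09. In WT cells, CD8+ against CD4+ gave a median of 0.20 (46 higher, 11 lower) and 0 called genes, against 10.5% of all genes. Of the 57, 5 had an unadjusted edgeR p under 0.05, all higher, against 22.1% of all genes in either direction, and DESeq2 called 0. The CD8+ and CD4+ levels did not overlap for 24 genes (background 48.1%), 19 higher and 5 lower. The median ranged from 0.0752 to 0.3521 with 1 library left out, the highest being without WT CD4+ replicate 1. Since both subsets came from the same livers, these tests were repeated with a term for each pool of recipients. The count of the 57 genes stayed at 0 in each, while all genes called went from 1 to 84 for the difference between subsets in STAT3-/-PD-1-/- against WT and from 1294 to 2991 for CD8+ against CD4+ WT cells.

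Genes that make or use ribosomes were compared next. In STAT3-/- against WT no gene of these lists was called in either subset. Of 9 elongation and nascent chain factors, 1 rose in CD4+ and 4 in CD8+ cells of STAT3-/-PD-1-/- against WT, and 1 and 3 rose against STAT3-/-. None fell. Of all genes, 7.21% and 9.01% were called higher against WT and 6.05% and 8.76% against STAT3-/- in CD4+ and CD8+ cells, while 5.65% and 8.21% and 5.03% and 8.05% were called lower, and the counts of every list below stand beside these shares. Eif5a, which carries ribosomes over difficult stretches, was at 367 and 354 CPM in WT, 320 and 284 in STAT3-/- and 527 and 623 in STAT3-/-PD-1-/- CD4+ libraries (log2 fold change against WT 0.67 ± 0.15, edgeR adjusted p = 0.0267). In CD8+ cells it was at 480 and 384, 458 and 346, and 706 and 840 CPM (0.84 ± 0.18, adjusted p = 0.0215). The STAT3-/-PD-1-/- libraries stood above the other 4 in each subset. Eef1g and Eef1b2, parts of the factor that recharges eEF1A, rose against WT in CD8+ cells by 0.73 ± 0.14 (adjusted p = 0.0165) and 0.51 ± 0.10 (adjusted p = 0.0172) on the log2 scale.

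Of 12 tested eIF3 subunits 1 rose in each of the 4 comparisons of STAT3-/-PD-1-/- cells and none fell. It was Eif3b, at 314 and 317 CPM in WT, 264 and 265 in STAT3-/- and 444 and 515 in STAT3-/-PD-1-/- CD4+ libraries. Of 26 other initiation factors, 0 rose against WT and 2 against STAT3-/- in CD4+ cells, and 5 and 8 rose in CD8+ cells, with none falling. Pabpc4, a poly(A)-binding protein, was at 28.2 and 21.7 CPM in WT, 26.6 and 20.8 in STAT3-/- and 45.9 and 53.8 in STAT3-/-PD-1-/- CD8+ libraries (log2 fold change against STAT3-/- 1.07 ± 0.19, edgeR adjusted p = 0.0146). Eif2b3 rose by 0.89 ± 0.14 and Eif1ax by 0.73 ± 0.11 against STAT3-/- in CD8+ cells (adjusted p = 0.0109 and 0.0101).

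Of 18 chaperones of ribosomal proteins and subunit export factors, 2 rose in CD4+ cells against WT and 2 against STAT3-/-, and 1 and 4 rose in CD8+ cells, with none falling. Grwd1, a ribosome assembly chaperone, was at 13.5 and 13.3 CPM in WT, 12.3 and 9.65 in STAT3-/- and 25.3 and 23.3 in STAT3-/-PD-1-/- CD4+ libraries. Pno1 and Nap1l1 rose by 0.97 ± 0.17 and 0.77 ± 0.14 against STAT3-/- in CD8+ cells (adjusted p = 0.0145 and 0.0157). Of 15 host genes of small nucleolar RNAs, 1 rose in CD4+ cells in each comparison, and 0 against WT and 3 against STAT3-/- rose in CD8+ cells. Snhg1 was at 42.0 and 32.8 CPM in STAT3-/- and 80.7 and 61.3 in STAT3-/-PD-1-/- CD8+ libraries. Of the ubiquitin fusion genes and Rack1, 0 of 3 were called. Of 6 tested paralogs that the name rule leaves out, Rps27l, a p53 target, rose in CD8+ cells, by 0.64 ± 0.17 against WT and 0.77 ± 0.17 against STAT3-/- (adjusted p = 0.0437 and 0.0264).

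Of 25 tested genes of mTORC1 signalling and TOP message control, 1 rose and 2 fell in CD4+ and 2 rose and 3 fell in CD8+ cells against WT, and 2 rose and 1 fell and 4 rose and 1 fell against STAT3-/-. In either direction 12.9% and 17.2% of all genes were called against WT and 11.1% and 16.8% against STAT3-/-. Sesn3, an mTORC1 inhibitor, was at 64.3 and 70.2 CPM in WT, 59.2 and 65.5 in STAT3-/- and 21.9 and 27.0 in STAT3-/-PD-1-/- CD4+ libraries (log2 fold change against WT -1.46 ± 0.17, edgeR adjusted p = 0.00446). Castor1, which also restrains mTORC1, fell by 1.04 ± 0.21 against WT in CD4+ cells (adjusted p = 0.0214). Tbc1d7, a subunit of the inhibitory TSC complex, rose by 0.88 ± 0.19 there (adjusted p = 0.0267). Deptor, another inhibitor, rose by 2.94 ± 0.36 and Rheb, an activator, fell by 0.58 ± 0.15 against WT in CD8+ cells (adjusted p = 0.00511 and 0.0408). Larp1, which binds TOP messages, rose by 0.61 ± 0.14 against STAT3-/- in CD8+ cells (adjusted p = 0.0289). Of the Myc and p53 genes, 11 were tested in CD4+ and 12 in CD8+ cells. In each subset 1 rose against WT and 1 fell against STAT3-/-, and Myc itself was not called. Mxd4 fell against STAT3-/- in both subsets, with log2 fold changes of -1.22 ± 0.16 in CD4+ and -0.80 ± 0.22 in CD8+ cells (adjusted p = 0.00865 and 0.0477). Phlda3 rose by 1.10 ± 0.29 in CD4+ and Trp53 by 0.69 ± 0.12 in CD8+ cells against WT (adjusted p = 0.0473 and 0.0138).

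The list medians for STAT3-/-PD-1-/- against STAT3-/- in CD4+ and CD8+ cells were 0.18 and 0.21 for elongation and nascent chain factors, 0.29 and 0.29 for eIF3 subunits and 0.40 and 0.35 for other initiation factors. They were 0.37 and 0.41 for chaperones and export factors, 0.32 and 0.62 for small nucleolar RNA hosts and -0.16 and -0.07 for mTORC1 and TOP message control. The median of all genes was -0.01 in CD4+ cells and that of the ribosomal protein genes was 0.21 in CD4+ and 0.25 in CD8+ cells.

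**Figure D5:**
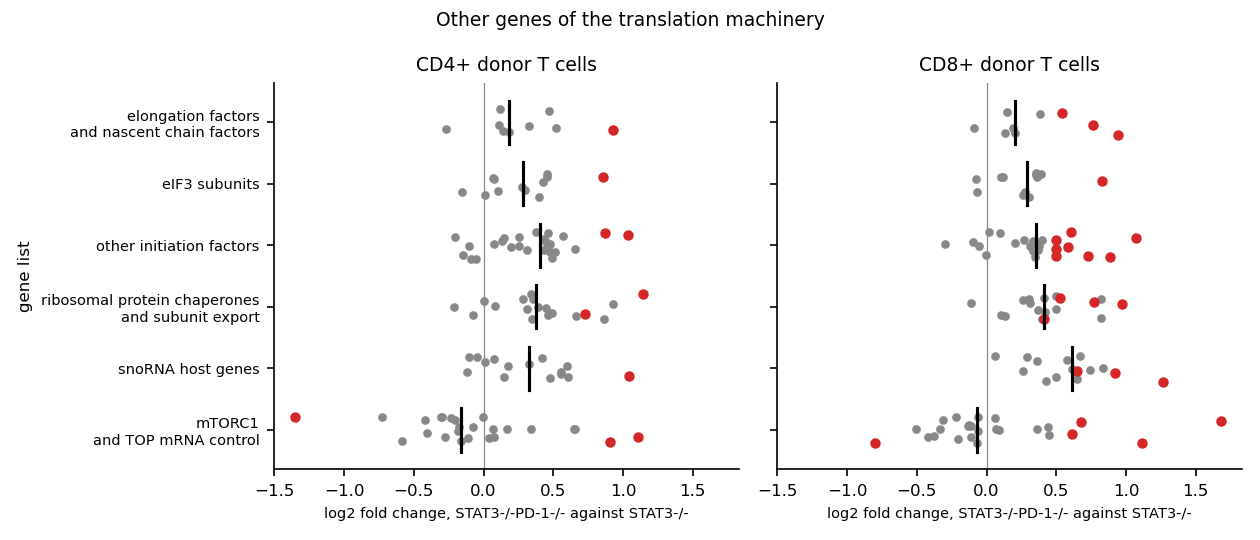
Log2 fold change of STAT3-/-PD-1-/- against STAT3-/- (x axis) for the genes of each list (rows), in CD4+ and CD8+ donor T cells, with 1 point per gene, red where the adjusted p was under 0.05, and a line at the list's median. The medians of the first 5 lists lay above 0 in both subsets, and that of mTORC1 and TOP mRNA control lay at -0.16 and -0.07.

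Marker genes were used to check the labels and to see what else the libraries held. Cd4 had 30578 to 44419 counts in CD4+ libraries and 8 to 67 in CD8+ libraries, and Cd8a had 13462 to 33522 counts in CD8+ libraries and 9 to 142 in CD4+ libraries. Summed CPM was taken over all counts of a library, without TMM. The 10 measured T cell identity genes summed to between 5065 and 7493 CPM. They were 5783 and 5661 CPM in STAT3-/-PD-1-/- CD4+ libraries, against 6043 to 6674 in the other CD4+ libraries, and 5065 and 5145 in STAT3-/-PD-1-/- CD8+ libraries, against 6277 to 7493 in the other CD8+ libraries. Of these 10, 2 fell in CD4+ and 5 in CD8+ cells against WT, against 5.65% and 8.21% of all genes, with Cd8a falling by 1.09 ± 0.12 on the log2 scale in CD8+ cells (edgeR adjusted p = 0.00414). Hepatocyte markers summed to 2.21 and 7.17 CPM in WT, 1.66 and 3.93 in STAT3-/- and 4.66 and 7.44 in STAT3-/-PD-1-/- CD8+ libraries, and to between 1.98 and 6.75 CPM in CD4+ libraries. Trf was their most abundant gene and was called higher in STAT3-/-PD-1-/- than in STAT3-/- CD8+ cells (log2 fold change 1.73 ± 0.48, adjusted p = 0.0486). Alb, the main hepatocyte transcript, had 1 to 13 counts in a library. Neutrophil markers reached 1.40 CPM and erythroid markers 0.754 CPM at most, and the globin genes Hba-a1 and Hbb-bs and the B cell gene Ms4a1 had 0 counts in every library.

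The sum of the myeloid markers was between 46.2 and 110 CPM in WT and STAT3-/- libraries and between 21.4 and 30.0 in STAT3-/-PD-1-/- libraries. Without Itgam, it was 8.396 to 22.04 CPM in WT and STAT3-/- and 11.5 and 13.9 in STAT3-/-PD-1-/- CD4+ libraries, which overlapped, and 27.9 to 42.0 against 20.02 and 23.2 CPM in CD8+ libraries. Of 10 tested myeloid markers 1 fell in CD4+ cells against WT, Itgam, and 2 in CD8+ cells, Itgam and Cd68. Itgam, a gene that activated T cells also carry, fell, with log2 fold changes of -2.41 ± 0.26 in CD4+ and -3.21 ± 0.19 in CD8+ cells against WT (adjusted p = 0.00398 and 0.000901). Clec4f, which marks Kupffer cells, had 25 to 39 counts in replicate 2 of WT and STAT3-/- and 1 to 6 in the other libraries. B cell markers summed to 5.86 and 6.83 CPM in STAT3-/-PD-1-/- CD8+ libraries, against 11.04 to 14.3 in the other CD8+ libraries, most of it Cd79b. Natural killer cell markers summed to 14.4 and 14.2 CPM in WT, 20.29 and 20.01 in STAT3-/- and 27.2 and 19.8 in STAT3-/-PD-1-/- CD4+ libraries. Among them Eomes, a transcription factor that T cells also use, was called higher in STAT3-/-PD-1-/- CD4+ cells against WT (log2 fold change 1.40 ± 0.26, adjusted p = 0.0158). In CD8+ libraries they summed to 48.6 and 31.4 CPM in STAT3-/-PD-1-/- and 59.4 to 87.7 CPM in the others. Endothelial and stellate markers, nearly all Pecam1, summed to 112 to 193 CPM. Pecam1 had 2493 to 4329 counts in a library, whereas Cdh5 had 1 to 22, Stab1 0 to 41 and Dcn 0 to 2. This sum therefore follows Pecam1 alone and does not measure endothelial or stellate content. The part of these markers in the ribosomal protein values was not tested.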

How the data were processed

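Donor CD4+ and CD8+ T cells from liver, 2 libraries per group, were sequenced as 51-base single-end reads. Per the study's methods, the authors aligned reads to mm10 with STAR and counted RefSeq genes with HTSeq. The authors deposited gene counts, and RPKM values beside them; counts were used for all tests, and RPKM for alternatives only. Gene counts gave the CPM scaled by TMM. The labels and the study's methods name different library kits and inputs, and whether strand was used in counting is not given in the sources used here. Tests were edgeR 4.0.16 quasi-likelihood (filterByExpr, minimum count 10, TMM) on the 6 libraries of a subset, or all 12 for differences between subsets and for CD8+ against CD4+ WT cells, with Benjamini-Hochberg adjustment over all genes at 0.05. Fits with the replicate number, or with each pool of recipients, as a block were alternatives. DESeq2 1.42.0 and limma 3.58.1 in R 4.3.3 were alternatives, as were the filter, the scaling, the libraries fitted and each library left out. Scripts were tested on simulated data. Genes named were a fixed set of members, with up to 2 largest called rises and falls per comparison and 3 per other list. The members and lists were chosen with earlier results of these data known. Promoters come from RefSeq (GRCm38.p6), and the 51-base windows from GENCODE M21. No promoter window was found for Rps14, Rpl29, Rps20, Rpl8, Rpl7, Rpl17, Rpl32, Rpl3 and Rplp1, among others. Some members are not reported here by name.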

Additional observations from a re-analysis of the deposited data

How the results depend on the processing

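The 8 calls of single ribosomal protein genes named in the text kept their positive sign in all 16 alternative settings and libraries left out, and stayed called in between 8 and 13 (Rpl5, and Rps2 in CD8+ cells against WT) of them. No median of the 57 genes moved by more than its spread between libraries except with a library left out. The cause of the shifts below was not tested. DESeq2 called 271, 2100 and 218 genes for STAT3-/- against WT in CD4+, STAT3-/-PD-1-/- against STAT3-/- in CD4+ and STAT3-/- against WT in CD8+ cells, and 5 and 75 for the differences between subsets; among ribosomal protein genes it called 2 and 4 in CD4+ and 7 and 10 in CD8+ cells for STAT3-/-PD-1-/- against WT and against STAT3-/-, against 18.1% and 17.6% and 22.7% and 23.4% of all genes. With all 12 libraries in 1 fit, STAT3-/- against WT gave 164 genes in CD4+ and 20 in CD8+ cells, and STAT3-/-PD-1-/- in CD4+ cells gave 2462 against WT and 2299 against STAT3-/-; ribosomal protein genes numbered 4 and 5 in CD4+ cells and 3 for STAT3-/-PD-1-/- against STAT3-/- in CD8+ cells, against 20%, 18.6% and 17.2% of all genes. Keeping all genes with at least 1 count gave 165 and 66 genes for STAT3-/- against WT and 2 ribosomal protein genes for STAT3-/-PD-1-/- against STAT3-/- in CD4+ cells, against 9.82% of all genes. Using only the 4 libraries compared gave 1 and 0 genes for STAT3-/- against WT, and 2 ribosomal protein genes for STAT3-/-PD-1-/- against STAT3-/- in CD8+ cells, against 16.1%. For STAT3-/- against WT in CD8+ cells, a minimum of 10 counts in every library gave 1 gene, total counts as the scale 1 and limma on log2(RPKM + 1) 3. Total counts gave 2 and 2 ribosomal protein genes in CD4+ and 4 and 10 in CD8+ cells for STAT3-/-PD-1-/- against WT and against STAT3-/-, against 13.4% and 12% and 18.7% and 18.1% of all genes, and limma gave 4 in CD8+ cells against WT, against 16.8%.

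Between genotypes, replicate numbers did not establish a pairing, since the labels say nothing of a shared day and each comparison has 2 pairs. Deviations of same-numbered libraries correlated across genes at 0.69, 0.34 and 0.20 in CD4+ and 0.70, 0.18 and 0.05 in CD8+ cells, and at 0.62, 0.61 and 0.71 between the subsets of WT, STAT3-/- and STAT3-/-PD-1-/-, which came from the same livers. With a replicate block, STAT3-/- against WT in CD4+ cells gave 303 genes, STAT3-/-PD-1-/- in CD4+ cells 3104 against WT and 3105 against STAT3-/-, the difference between subsets for STAT3-/-PD-1-/- against WT 28, and CD8+ against CD4+ WT cells 2014. Ribosomal protein genes then numbered 8 and 9 in CD4+ and 6 and 8 in CD8+ cells for STAT3-/-PD-1-/- against WT and against STAT3-/-; all rose but 1, Rps10, which fell. Of all genes the block called 26% and 26% and 24.7% and 24.4%. A block for each pool of recipients, added after seeing the data, gave 84 genes for that difference between subsets and 2991 for CD8+ against CD4+ WT cells.

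As a share of summed RPKM the 57 genes made up 3.51%, 3.58% and 4.20% in CD4+ and 3.86%, 3.74% and 4.56% in CD8+ cells (WT, STAT3-/-, STAT3-/-PD-1-/-). The 9 members with at least 80% unique windows by exact match, chosen after seeing the data, held 0.551%, 0.554% and 0.680% and 0.634%, 0.594% and 0.746% of counts. All rows of the name pattern held 1.57% in STAT3-/-PD-1-/- CD8+ cells.

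With each library left out in turn, the genes called ranged from 1 to 49 (STAT3-/- against WT), 62 to 1947 (STAT3-/-PD-1-/- against WT) and 0 to 1212 (against STAT3-/-) in CD4+ cells, from 0 to 2, 111 to 1908 and 2 to 1878 in CD8+ cells, from 1 to 9 for the subset difference of STAT3-/-PD-1-/- against WT and from 611 to 1320 for CD8+ against CD4+ WT cells. Ribosomal protein genes ranged from 0 to 2 and 0 to 1 in CD4+ and 0 to 3 and 0 to 2 in CD8+ cells for STAT3-/-PD-1-/- against WT and against STAT3-/-. The medians ranged from -0.1532 to 0.1594, 0.1188 to 0.3522 and 0.0642 to 0.3892 in CD4+ cells, from -0.1859 to 0.013, 0.0776 to 0.2356 and 0.2159 to 0.2776 in CD8+ cells, from -0.2572 to 0.0281 and -0.1899 to 0.0543 for the subset differences and from 0.0752 to 0.3521 for CD8+ against CD4+ WT cells. Depth varied little between libraries, and 15 of the 57 genes had fewer than 500 counts in some library.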
